A study of Glycine max with 34 samples.

Results

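The maternal layers of the soybean seed coat were compared with the embryo inside them. The comparison used 30 of the 34 arrays and 15 of the 17 groups. The coat was represented by its hourglass, hilum, palisade and parenchyma groups, 8 arrays in all. The embryo was represented by 11 groups on 22 arrays: axis epidermis, parenchyma, plumule, root meristem, shoot meristem and vascular bundle, and cotyledon vascular bundle, abaxial epidermis, abaxial parenchyma, adaxial epidermis and adaxial parenchyma. The aleurone descends from the endosperm and not from the mother's own tissue. It stayed out of the comparison with its 2 arrays, as did the 2 arrays of whole seed. Groups were chosen from the labels and not from any measured value.

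All groups came from cultivar Asgrow A3237, a commercial soybean without a labelled mutation or treatment, at the early maturation stage, when seeds were 6 to 7 mm long. Compartments were cut by laser from paraffin sections of 8 microns, and 2 ng of RNA per sample was amplified before hybridization to the Affymetrix Soybean Genome Array. Each group had 2 biological replicates. Neither the number of seeds pooled nor whether coat and embryo sections shared seeds is stated in the labels, and compartments were treated as independent. The p-values of coat against embryo below measure the spread between these compartments. Those of the F test among the coat layers measure the spread between replicate arrays.

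The coat develops from the integuments of the ovule, carries the mother's genotype and encloses the embryo, which fertilization produces. Its outer palisade cells and the hourglass cells beneath them form the hard shell, the parenchyma inside passes sugars and amino acids on to the embryo, and the hilum is the scar where the seed was attached to the pod. At early maturation the embryo lays down storage protein and oil. In this tissue the coat is known for its phenolic compounds, among them proanthocyanidins and, in coloured seeds, anthocyanins.

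Signals are deposited probe set intensities on arrays scaled to a common trimmed mean. Differences are given as log2(signal + 16) in the coat minus the embryo, between the mean of 4 coat layers and the mean of 11 embryo compartments, with the SE over these 15 compartments. A probe set was called when its limma p, adjusted by Benjamini-Hochberg over all 27769 soybean probe sets tested, was under 0.05 and the log2 difference was at least 1. A fold written as "at least" is a lower bound, used where most arrays of the dimmer group, or as many as not, lay below the background. That background was taken on each array from probe sets designed for 2 other organisms, at their 95th percentile, and signals below it were raised to it. In sectioned tissue, fewer cells of a type and less RNA per cell cannot be told apart.

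The markers given for the maternal coat were high on its arrays. They came with the definition of this part, so their signals are no independent check of the label. Summed over AGL1L, SEP1, MADS28 and IFR1, signals ran from 24182 to 93497 on the coat arrays, against 88.9 to 713 on the embryo arrays. The sum of 7 embryo genes (GY1, GY2, CG-1, GM2S-1, KTI3, LOX1.1 and SBP2) ran from 447 to 11866 on coat arrays and from 12582 to 235600 on embryo arrays. The axis vascular bundle had the lowest embryo sums, 12582 and 17938. GY1 and GY2 were not called between coat and embryo. Their coat minus axis differences were above 0 (0.42 and 0.77) and were not called either. The highest coat value of the sum came from hourglass replicate 2, whereas hourglass replicate 1 had 2139 and the other 6 coat arrays had at most 1355. The coat marker sum was highest in the embryo on cotyledon abaxial epidermis replicate 1, at 713, and on axis epidermis replicate 2, at 663. Hybridization controls on 5 embryo arrays (both of axis epidermis, both of plumule and 1 of axis vascular bundle) stood at over 2 times their median over arrays. The ratio of 3' to 5' ubiquitin probe sets, a sign of RNA length, had a median of 44.2 over coat arrays (1.95 to 144) and 5.76 over embryo arrays (0.417 to 30.2). The same ratio for actin had a median of 4.63 over coat arrays (0.795 to 8.43) and 3.94 over embryo arrays (1.49 to 33.9). The part of these values in the results below was not tested. Without hourglass replicate 2, 2181 probe sets were called higher and 2299 lower, and without the 5 embryo arrays 1976 and 2169.

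In all, 2171 of 27769 probe sets were higher in the coat (7.82%) and 2297 were lower (8.27%), 16.1% in either direction. The median difference was 2.00 among those higher and -1.71 among those lower, against -0.07 over all probe sets tested. Signals did not overlap for 364 probe sets (1.31%) with all 8 coat arrays above all 22 embryo arrays, and for 440 (1.58%) with all coat arrays below. Above the background on all 8 coat arrays and on 0 embryo arrays were 37 probe sets, and 30 showed the opposite. Named genes among the 37 were MADS28 and SEP1, and among the 30 they were GASA12, PGMPM10, SBP2 and PM29. Between compartments, the median Pearson correlation across probe sets was 0.739 for coat with embryo, 0.818 for 2 coat layers and 0.871 for 2 embryo compartments. Only genes whose symbol says more than a locus number are named, and of these 876 genes 107 were higher (12.2%) and 112 lower (12.8%). The counts of list members below are to be read against these shares.

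**Figure D1:**
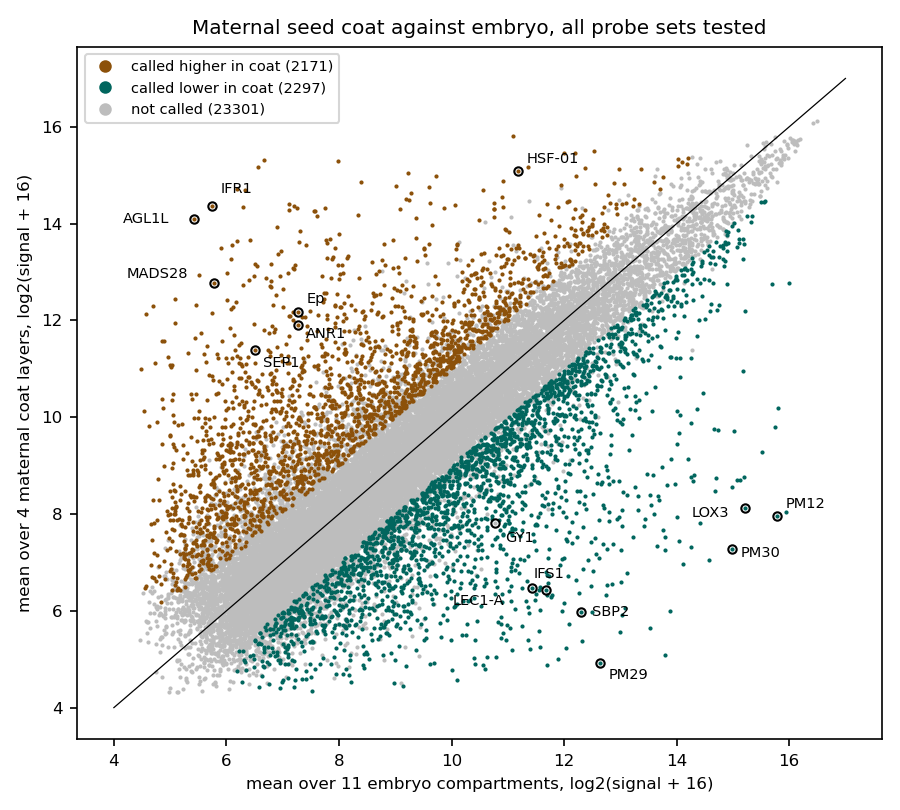
Mean log2(signal + 16) of each soybean probe set over the 4 maternal coat layers (vertical axis) against the mean over the 11 embryo compartments (horizontal axis). Brown points are the 2171 called higher in the coat, green points the 2297 called lower, grey points were not called, and rings mark genes named in the text, with AGL1L and IFR1 far above the line of equal signal and PM30 and PM12 far below it.

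Of 6 MADS-box genes, known as regulators of flower and fruit identity, 5 were called higher in the coat and 0 lower, with a median difference of 4.06, against 12.2% of named genes called higher and a median of 0.04. The list holds 3 of the 4 given coat markers, AGL1L, MADS28 and SEP1, so its count and median are not independent evidence of its direction. The members outside the markers were AGL3L, NMH7 and AP1A. AGL1L, named for likeness to the AGAMOUS family that specifies carpels and ovules, had signals of 9698 to 23186 (median 19051) on the coat arrays, against 4.8 to 286 (median 16.1) on the embryo arrays. No embryo array came near a coat array. The log2 difference was 8.68 ± 0.36, at least 87.3-fold (limma adjusted p = 1.46e-10).

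MADS28 ran from 3642 to 13058 (median 7458) in the coat and from 2.3 to 140.4 (median 35.5) in the embryo, a difference of 7.00 ± 0.36 (at least 35.8-fold; limma adjusted p = 2.3e-09). SEP1, of the SEPALLATA family that partners other MADS factors in flowers, ran from 1619 to 4277 (median 2711) in the coat and from 6.5 to 198 (median 88.6) in the embryo. Its difference was 4.87 ± 0.34, at least 13.6-fold (adjusted p = 5.53e-08). AGL3L stood at 2135 to 3128 in the coat and at 14 to 1007 in the embryo (3.25 ± 0.68, adjusted p = 0.00303). All 4 genes had coat and embryo signals that did not overlap, and the F test among the coat layers did not pass for any of them (adjusted p = 0.311 to 0.902). The other called member, NMH7, was named after its values were seen. It differed among layers (F test, adjusted p = 1.09e-05), with means of 2892 in parenchyma and 1508 in hilum, against 99 in hourglass and 80.5 in palisade. NMH7 was not called against the axis alone (2.74, adjusted p = 0.0595) or the cotyledon alone (2.46, adjusted p = 0.165), without the parenchyma (1.70, adjusted p = 0.0989) or without the hilum (2.05, adjusted p = 0.0906), and 1 of its 2 probe sets did not share the call. AP1A, the member not called, stood at 0.04.

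Of 50 MYB factors, 7 were higher and 1 lower, with a median of 0.45, against 12.2% and 12.8% of all named genes. MYB73 had 2369 to 31498 (median 18959) in the coat and 34.2 to 499 (median 141) in the embryo, with no overlap (6.33 ± 0.50, at least 58.0-fold, limma adjusted p = 2.67e-07). MYB48 was concentrated in the hourglass layer, with a mean of 28732 there, 10758 in hilum and at most 556 in the remaining layers (5.27 ± 1.14, at least 11.2-fold). MYB79 (4.21 ± 0.65) had means of 3362 in hilum and 2934 in hourglass, and 269 in parenchyma. MYB64 (2.90 ± 0.47) was highest in hilum, and MYB112 was lower in the coat (-1.31 ± 0.28), though not against the cotyledon alone (-1.13, adjusted p = 0.0825).

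HSF-01, a heat shock factor, had 26109.8 to 46551 on the coat arrays and 268 to 17132 on the embryo arrays, with no overlap (3.90 ± 0.71, limma adjusted p = 0.00122), and its layers did not pass the F test (adjusted p = 0.912). Among 48 bZIP factors 3 were higher and 3 lower (median 0.43), against 12.2% and 12.8% of all named genes. BZIP62 (4.85 ± 1.15, at least 17.4-fold) was highest in parenchyma, with a mean of 22066, and BZIP1 was higher by 2.71 ± 0.28. BZIP70 did not overlap between coat and embryo, at 608 to 1519 against 4224 to 12019 (-3.08 ± 0.21). BZIP132 (-4.70 ± 0.81) was an embryo gene with an exception: the hilum had a mean of 6631, and the other 3 layers 38.1 to 342. Of 12 NAC factors 2 were higher and 0 lower (median 1.11). One of them, NAC14, with a mean of 12703 in hilum, missed the threshold without that layer (2.77, adjusted p = 0.0548) and against the cotyledon alone (3.68, adjusted p = 0.0666). Of 35 WRKY factors 1 was higher and 0 were lower (median 0.05).

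Among 28 other transcription factors 1 was higher, HSF-01, and 5 were lower (median -0.08). LEC1-A is a homologue of LEAFY COTYLEDON1, which in Arabidopsis promotes embryo maturation. Its signals were 15.2 to 197 (median 67.3) in the coat, against 97.7 to 8678 (median 4331) in the embryo. Ranges overlapped at their ends, and 20 embryo arrays but 2 coat arrays were above the background. The difference was -4.95 ± 0.84, at least 16.0-fold (limma adjusted p = 0.000652). NF-YA05, a subunit of the NF-Y complex to which LEC1 belongs, did not overlap, at 99.3 to 774 in the coat and 889.5 to 24616 in the embryo (-4.02 ± 0.67, adjusted p = 0.000558).

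Flavonoid genes differed between coat and embryo in both directions. Phenylalanine is turned by PAL, C4H and 4CL and then by CHS and CHI into flavanones, from which DFR, ANS, LAR and ANR lead to proanthocyanidins and anthocyanins, and IFS leads to isoflavones. Among 35 flavonoid and phenylpropanoid genes, 6 were higher in the coat and 6 lower (median 0.43), against 12.2% and 12.8% of all named genes. The 6 higher include IFR1, which is a given coat marker and also counts in the isoflavonoid branch. By branch, 4 of 6 proanthocyanidin and anthocyanin genes were higher and 0 lower (median 4.47). The 2 members not called were DFR2 (1.43) and the anthocyanidin glucosyltransferase UGT78K1 (-2.73 ± 1.70, adjusted p = 0.28). Of 11 isoflavonoid genes, with chalcone reductases counted among them, 2 were higher and 4 lower (median -1.54), and of 15 early genes 0 were higher and 2 lower (median 1.29). The remaining 3 genes, FLS1, CCR and SOMT-9, were not called (median -2.41). The division into branches was made after the values had been seen and is a description.

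DFR1, dihydroflavonol reductase, had signals of 175 to 44344 (median 2832) on the coat arrays and 9.7 to 692 (median 119) on the embryo arrays (4.56 ± 0.90, at least 14.4-fold, limma adjusted p = 0.00207). ANR1, anthocyanidin reductase, had 91.3 to 45825 (median 6232) in the coat and 14.8 to 733 (median 119) in the embryo (4.63 ± 0.97, at least 17.1-fold, adjusted p = 0.00318). LAR1, leucoanthocyanidin reductase, had 5.5 to 10150.3 (median 2054) in the coat and 3.6 to 1055 (median 9.9) in the embryo (4.84 ± 1.07, at least 4.53-fold, adjusted p = 0.00441). The ranges of all 3 genes overlapped through 1 coat layer, the parenchyma. Layer means of ANR1 were 44713 in palisade, 9682 in hilum, 4479 in hourglass and 109 in parenchyma. DFR1 followed the same outline, with 42254 in palisade and 213 in parenchyma, and so did LAR1, with 9481 and 8.4. ANS2, anthocyanidin synthase, named after its values were seen, had 49232 in palisade and 151 in parenchyma (4.38 ± 1.01, adjusted p = 0.00575). Its call was lost against the axis alone (3.81, adjusted p = 0.0553). Layers differed for each of the 4 genes (limma F test, adjusted p = 1.37e-08 for LAR1 to 2.22e-06 for DFR1).

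IFS1, isoflavone synthase, which opens the isoflavone branch, lay below the background on all 8 coat arrays, at 43.4 to 123 (median 62.8), and ran from 158 to 16631 (median 3408) in the embryo. Ranges did not overlap, and the difference was -5.25 ± 0.83, at least 19.7-fold lower (limma adjusted p = 0.000362). IFS2 behaved likewise, at 5.5 to 80.8 in the coat and 176 to 2464 in the embryo (-4.10 ± 0.49, at least 4.49-fold, adjusted p = 2.68e-05). IF7MaT, which adds malonate to isoflavone glucosides, had 32.8 to 368 in the coat and 1403 to 19473 in the embryo, also without overlap (-5.38 ± 0.60, at least 27.5-fold, adjusted p = 1.28e-05). CHI1B1, a chalcone isomerase upstream of both branches, was lower as well (-4.16 ± 0.91), although 2 of its 4 probe sets did not share the call. IF7GT, isoflavone glucosyltransferase, was named after its values were seen and was lower by the model (-3.18 ± 0.77), but not against the cotyledon alone (-2.83, adjusted p = 0.111).

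IFR1, by its symbol an isoflavone reductase and a given coat marker, was 1 of the 2 isoflavonoid genes higher in the coat. It had 2511 to 68362 (median 35859) on the coat arrays and 9.8 to 379 (median 22.1) on the embryo arrays, without overlap (8.63 ± 0.59, at least 103-fold, limma adjusted p = 4.9e-08). All 4 of its probe sets were called higher. Within the coat it was lowest in the palisade, with a mean of 2666, where the proanthocyanidin genes were highest, and its hourglass mean was 63555. CHS1 (1.40 ± 0.79), CHS8 (1.82 ± 1.02) and C4H (1.76 ± 0.68) were not called against the embryo (adjusted p = 0.0759 to 0.235), and each had its highest coat mean in the palisade, 13328 for CHS1, 6228 for CHS8 and 17470.1 for C4H.

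**Figure D2:**
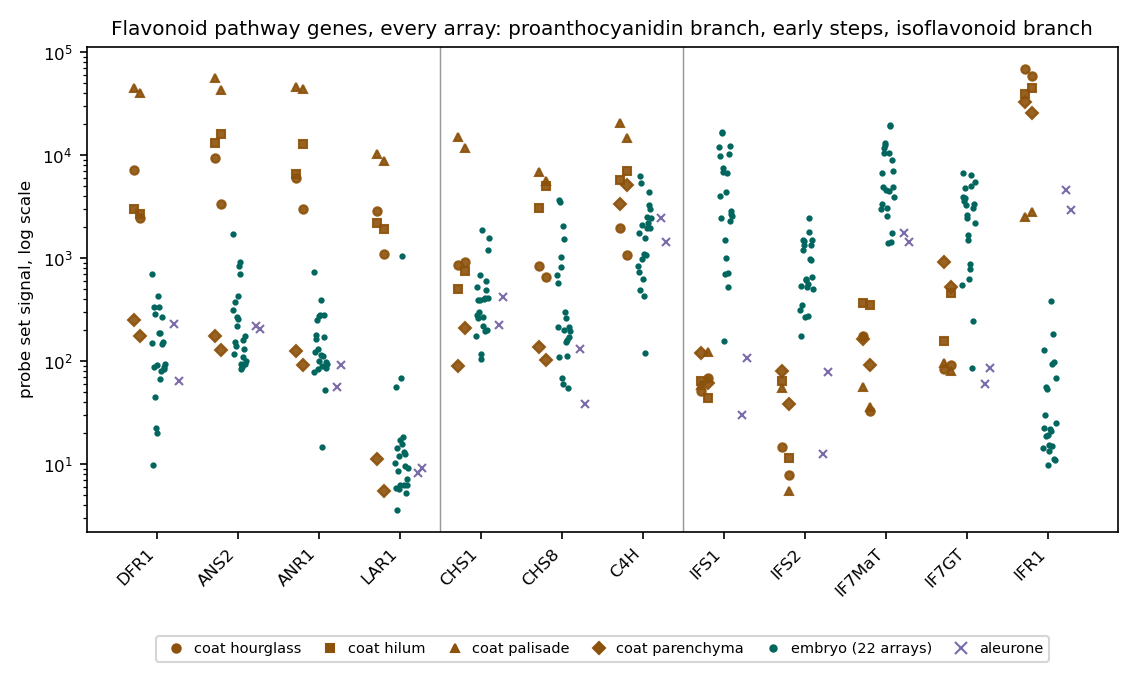
Probe set signal (log scale) of 12 flavonoid pathway genes on every array, with coat arrays in brown and shaped by layer, the 22 embryo arrays in green and the 2 aleurone arrays as crosses. Proanthocyanidin genes (left) reach 42254 to 49232 on average in palisade for DFR1, ANS2 and ANR1 and fall among embryo signals in parenchyma, whereas IFS1, IFS2 and IF7MaT (right) lie below every embryo array on all coat arrays.

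Cell wall genes were higher in the coat where they were called at all: 5 of 11 higher and 0 lower (median 1.5). PRP3, a proline-rich wall protein, had 9149 to 72916 (median 18387) in the coat and 7.1 to 8601 (median 124) in the embryo, with no overlap (7.07 ± 1.00, at least 63.6-fold, limma adjusted p = 0.000147). SCB1, a seed coat protein with a BURP domain, had 1325 to 104546 (median 32889.8) in the coat and 20.4 to 5521 (median 165) in the embryo (6.57 ± 0.99, at least 61.0-fold, adjusted p = 0.000242). For both genes the highest embryo array was cotyledon abaxial epidermis replicate 1, which also had the highest coat marker sum in the embryo. SCB1 averaged 93968 in hourglass, 59161 in parenchyma, 12624 in palisade and 3004 in hilum. CEL12, an endoglucanase, had 4108 to 29150.4 in the coat and 364 to 3563 in the embryo (3.19 ± 0.46, adjusted p = 0.000179). PRP1 (3.91 ± 1.04) averaged 15497 to 16667 in 3 layers and 1000.4 in parenchyma, and was not called without the hourglass layer (3.56, adjusted p = 0.0581) or against the axis alone (3.47, adjusted p = 0.0805).

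Peroxidases were called for 2 of 5 genes, both higher (median 0.59). Ep, the seed coat peroxidase known to accumulate in hourglass cells, had means of 39541 in hourglass and 24206 in parenchyma, 1979 in palisade and 278 in hilum, against 29 to 579 (median 127) on the embryo arrays. The difference was 4.91 ± 0.94, at least 20.5-fold (limma adjusted p = 0.00168), and layers differed (adjusted p = 7.46e-11). The hilum arrays overlapped the embryo arrays. PRX2 was bright in both, at 21423 to 56807 in the coat and 2714 to 22394 in the embryo (2.16 ± 0.42, adjusted p = 0.00193).

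Genes of nitrogen transport and assimilation were higher for 4 of 9 and lower for 1 (median 2.02). Glutamine synthetase makes glutamine, a main form in which nitrogen reaches the embryo. GS1-GAMMA, its cytosolic form, had 927 to 35239 (median 17547) in the coat and 22.5 to 14199 (median 131) in the embryo. The ranges overlapped, since the cotyledon vascular bundle held the highest embryo signal. The difference was 5.41 ± 1.09, at least 29.9-fold (limma adjusted p = 0.00243), and was not called against the cotyledon alone (4.93, adjusted p = 0.0663). Layer means were 34071 in hourglass, 25901 in parenchyma, 9417 in hilum and 1292 in palisade.

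The related GS1GAMMA2 (4.18 ± 1.3, limma adjusted p = 0.0306) had 13692 in parenchyma and 234 in palisade. Its call was lost when the hourglass layer (adjusted p = 0.108), the hilum (0.0782) or the parenchyma (0.105) was left out, and against the cotyledon alone (0.165). NRT1-3, a nitrate transporter, had 4377 to 33724 in the coat and 119 to 8645 in the embryo (3.96 ± 0.92, adjusted p = 0.00633). The 2 glutamate dehydrogenase genes moved oppositely. GDH2 was lower in the coat, at 142 to 682 against 583 to 4072 in the embryo (-2.38 ± 0.39, adjusted p = 0.000503). GDH1 was higher (3.13 ± 0.93, adjusted p = 0.0257), but not called without the hourglass layer (2.94, adjusted p = 0.0828) or the hilum (2.76, adjusted p = 0.0849), or against the axis alone (3.20, adjusted p = 0.0602), and 1 of its 2 probe sets did not share the call.

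Sugar genes were higher for 3 of 12 and lower for 1 (median 0.17). SWEET24, of the family of sugar exporters, had 128 to 43274 (median 3735) in the coat and 8.4 to 1187 (median 29.9) in the embryo. Its layer means were 39503 in parenchyma, 13152 in hourglass, 632 in hilum and 164 in palisade, so the outer palisade lay within the embryo range. The difference was 5.24 ± 1.16, at least 11.1-fold (limma adjusted p = 0.00456), though not against the cotyledon alone (4.64, adjusted p = 0.0895). SWEET13 (3.31 ± 0.91) was highest in another layer, with a mean of 13918 in hourglass and 1421 in parenchyma, and was not called without the hourglass layer (2.20, adjusted p = 0.0937) or against the cotyledon alone (2.77, adjusted p = 0.178). MST1, a monosaccharide transporter by its symbol (1.98 ± 0.59), was highest in palisade, with a mean of 3719, and was not called without that layer (1.59, adjusted p = 0.0946) or without the hourglass layer (1.67, adjusted p = 0.108), or against the axis alone (1.33, adjusted p = 0.127).

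On the embryo side, SBP2, a sucrose binding protein, was below the background on all coat arrays, at 9.4 to 148 (median 56.8), and above it on all embryo arrays, at 962 to 18062 (median 6608). It was at least 30.6-fold lower in the coat (-6.33 ± 0.57, limma adjusted p = 1.21e-06). SUT1, a sucrose transporter, stood at -2.18 and was not called. Of 18 aquaporins 2 were higher and 2 lower (median -0.26), against 12.2% and 12.8% of all named genes. PIP2-9, a water channel of the plasma membrane, had 692 to 27565 in the coat and 20.5 to 467 in the embryo, with no overlap (4.82 ± 0.68, adjusted p = 0.000142). PIP2-1 ran the other way (-2.44 ± 0.60), with a mean of 712 in hilum and 16913 in palisade, and its difference was -1.49 without the hilum. PIP2-1 was not called against the cotyledon alone (-2.52, adjusted p = 0.0753). SIP1-6, a small basic intrinsic protein, was also lower (-5.23 ± 0.54, at least 6.21-fold). None of 7 sieve element occlusion genes was called (median 0.87).

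**Figure D3:**
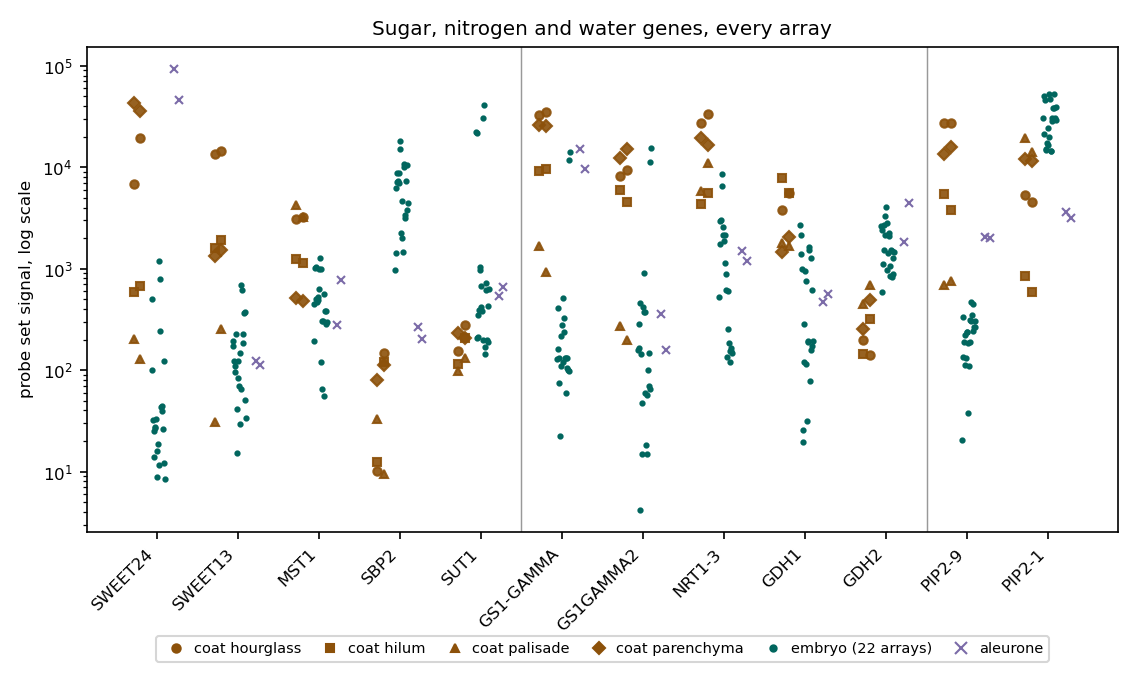
Probe set signal (log scale) of 12 sugar, nitrogen and water genes on every array, with coat arrays in brown and shaped by layer, the 22 embryo arrays in green and the 2 aleurone arrays as crosses. SWEET24 is highest in coat parenchyma and in aleurone, SWEET13 in hourglass, SBP2 lies below every embryo array on all coat arrays, and 2 embryo arrays of GS1-GAMMA, both of the cotyledon vascular bundle, reach the coat range.

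Ferritin gene SFERH-2, whose product stores iron, had 4649 to 32677 (median 14049) in the coat and 4 to 4585 (median 269) in the embryo, without overlap (5.81 ± 0.93, limma adjusted p = 0.000436). Its layers did not pass the F test (adjusted p = 0.681). Further genes among the 15 with the largest positive differences were R1 (6.66 ± 0.52, at least 42.4-fold), SALI5-4A (5.84 ± 1.48) and SRC1 (5.31 ± 0.90). SALI5-4A overlapped the embryo through the cotyledon vascular bundle, where replicate 1 had 25999, and 2 of its 3 probe sets did not share the call. It was not called against the cotyledon alone (3.87, adjusted p = 0.12). GASA genes, a family that responds to gibberellin, were higher for 3 of 16 and lower for 1 (median 1.21). GASA9 had 8374 to 62763 in the coat and 260.3 to 1401 in the embryo, without overlap (5.26 ± 0.36, adjusted p = 4.89e-08), and was highest in hourglass. GASA12 was lower, with 0 coat arrays and all 22 embryo arrays above the background (-3.93 ± 1.07, at least 8.14-fold). Of 18 genes of hormone pathways 2 were higher and 1 lower (median 0.68), against 12.2% and 12.8% of all named genes. AOC4, of jasmonate synthesis (3.30 ± 0.92), had a mean of 14475 in parenchyma. It lost its call without the parenchyma (2.72, adjusted p = 0.0737) or the hourglass layer (3.01, adjusted p = 0.0695).

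Of all the lists, seed maturation genes had the most members lower in the coat: of 27 seed maturation and LEA protein genes 18 were lower and 1 higher, with a median of -4.29, against 12.8% of named genes called lower. LEA proteins accumulate in maturing embryos and are linked to desiccation tolerance. PM30 had 16.4 to 732 (median 195) on the coat arrays and 21486 to 56014 (median 30309.8) on the embryo arrays, a gap with no array in it (-7.71 ± 0.40, at least 133-fold, limma adjusted p = 2.3e-09). PM12 had 9.3 to 2147 (median 253) in the coat and 31586 to 96709 (median 58030.1) in the embryo (-7.84 ± 0.47, adjusted p = 1.04e-08). PM29 was below the background on every coat array, at 4.2 to 108, and at 2528 to 19031 in the embryo (-7.72 ± 0.43, at least 38.5-fold, adjusted p = 4.95e-09). These 3 genes were lower by similar amounts against axis and cotyledon taken apart, PM30 by -7.91 and -7.47, PM12 by -8.22 and -7.38 and PM29 by -8.27 and -7.05. PM34 (-6.42 ± 0.58), PGMPM10 (-5.96 ± 0.83) and LEA5 (-5.55 ± 0.79) did not overlap either.

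LEA-2 went against its list. It had 3124 to 12171 (median 6987) in the coat and 98.9 to 1812 (median 894) in the embryo, without overlap (3.40 ± 0.57, limma adjusted p = 0.00063).

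Storage protein genes differed less uniformly, with 2 of 8 lower and 0 higher (median -1.86). GM2S-1, a 2S albumin, had 4 to 1461 (median 13.5) in the coat and 276 to 103300.3 (median 20480.4) in the embryo (-7.88 ± 1.32, at least 54.1-fold, limma adjusted p = 0.000597). Its highest coat mean, 743, was in hourglass. That layer had the highest sum of embryo markers, but the sum includes GM2S-1 itself. CG-1, a beta-conglycinin gene, had 5.9 to 74.7 in the coat and 215 to 12393 in the embryo (-5.58 ± 0.80, at least 12-fold, adjusted p = 0.000168), although 1 of its 2 probe sets did not share the call. The glycinin gene GY1 was not called (-2.97 ± 2.01, adjusted p = 0.324). Its coat minus axis difference was 0.42 and its coat minus cotyledon difference -7.03 (adjusted p = 0.00217). Embryo signals of GY1 ran from 11.9 to 64601. With axis and cotyledon given equal weight GY1 was called (-3.31, adjusted p = 0.0234). GY2 stood at 0.77 against the axis and at -4.48 against the cotyledon, where it was called (adjusted p = 0.0305), and was not called overall (-1.62 ± 1.49, adjusted p = 0.483).

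Protease inhibitors, which accumulate beside storage proteins, had 4 of 9 genes lower and 0 higher (median -3.57). D-II, a Bowman-Birk inhibitor, had 32.5 to 4753 (median 388) in the coat and 1641 to 84272 (median 25034) in the embryo (-5.36 ± 0.94, limma adjusted p = 0.00088). KTI3, the Kunitz trypsin inhibitor, had 14.6 to 391 in the coat and 122 to 47231 in the embryo (-5.48 ± 1.14, adjusted p = 0.00298). Proteases were lower for 2 of 6 and higher for 0 (median -1.21). VPE, a vacuolar processing enzyme of the kind that matures storage proteins, had 73.7 to 543 in the coat and 4374 to 17407 in the embryo, with no overlap (-4.96 ± 0.41, adjusted p = 4.37e-07). CP3, a cysteine protease by its symbol, had 131 to 949 in the coat and 3973 to 26609 in the embryo, also with no overlap (-5.35 ± 0.43, adjusted p = 3.72e-07).

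Lipoxygenases, which oxidize polyunsaturated fatty acids, were lower for 4 of 9 and higher for 1 (median -1.24). LOX3 had 24.1 to 3564 (median 241) in the coat and 8613 to 97913 (median 37422) in the embryo (-7.10 ± 0.55, limma adjusted p = 2.04e-07). LOX1.1 (-7.04 ± 0.96, at least 52.0-fold) and LOX2 (-4.90 ± 0.80, at least 20.1-fold) did not overlap between coat and embryo either. LOX9 was the exception, with means of 48679 in parenchyma and 43810.2 in hourglass, 961 in hilum and 239 in palisade, against 55.1 to 658 (median 148) in the embryo. Its difference was 4.71 ± 1.06, at least 19.0-fold (adjusted p = 0.00492). The palisade lay within the embryo range, and LOX9 was not called against the cotyledon alone (4.37, adjusted p = 0.096).

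Fatty acid genes were lower for 2 of 14 and higher for 1 (median -0.71), against 12.8% and 12.2% of all named genes. SACPD-C, a stearoyl-ACP desaturase, had 141 to 855 in the coat and 3439.5 to 45426 in the embryo, with no overlap (-5.41 ± 0.65, limma adjusted p = 2.89e-05). FAD2-1A, the oleate desaturase of seed oil, had 26.2 to 1229.7 in the coat and 679.8 to 44683 in the embryo (-5.07 ± 0.95, at least 24.6-fold, adjusted p = 0.00149). FAD8.2, a plastid desaturase, was higher (2.16 ± 0.52), though not against the cotyledon alone (1.67, adjusted p = 0.11). All 3 soyasaponin genes were lower (median -4.60). CYP93E1, a triterpenoid hydroxylase, had 141 to 5094 (median 722) in the coat and 417 to 110224 (median 45554) in the embryo (-5.30 ± 0.95, adjusted p = 0.00103), with 2 of its 4 probe sets not sharing the call. Its highest coat mean was 4311 in parenchyma. The glycosyltransferases SGT2 (-4.60 ± 1.26) and SGT3 (-2.78 ± 0.79) also had their highest coat means in parenchyma, 9332 and 2541. SGT2 was not called without the hilum (-4.06, adjusted p = 0.0623) or the palisade (-3.57, adjusted p = 0.0693), and SGT3 was not called without the hilum (-2.52, adjusted p = 0.0668), the palisade (-2.37, adjusted p = 0.0685) or the hourglass layer (-2.66, adjusted p = 0.0647). Against the cotyledon alone neither SGT2 (-4.16, adjusted p = 0.164) nor SGT3 (-2.91, adjusted p = 0.0758) was called.

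Other lists were split or near the background. Cytochrome P450 genes were higher for 1 and lower for 4 of 17 (median -0.46), and CYP93E1 was the member with the largest difference. Glutathione transferases were higher for 4 and lower for 3 of 21 (median 0.22). GSTU30 was higher (3.61 ± 0.80), but not against the cotyledon alone (3.55, adjusted p = 0.0606), and GSTF7 was lower (-3.43 ± 0.62, at least 5.94-fold). Of 8 photosynthesis genes (median 0.21), 5 genes of cell division and chromatin (median 0.65) and 3 vegetative storage and defence genes (median 0.43) none was called in the limma fit, which had 9290 probe sets of 27769 at an unadjusted p under 0.05.

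**Figure D4:**
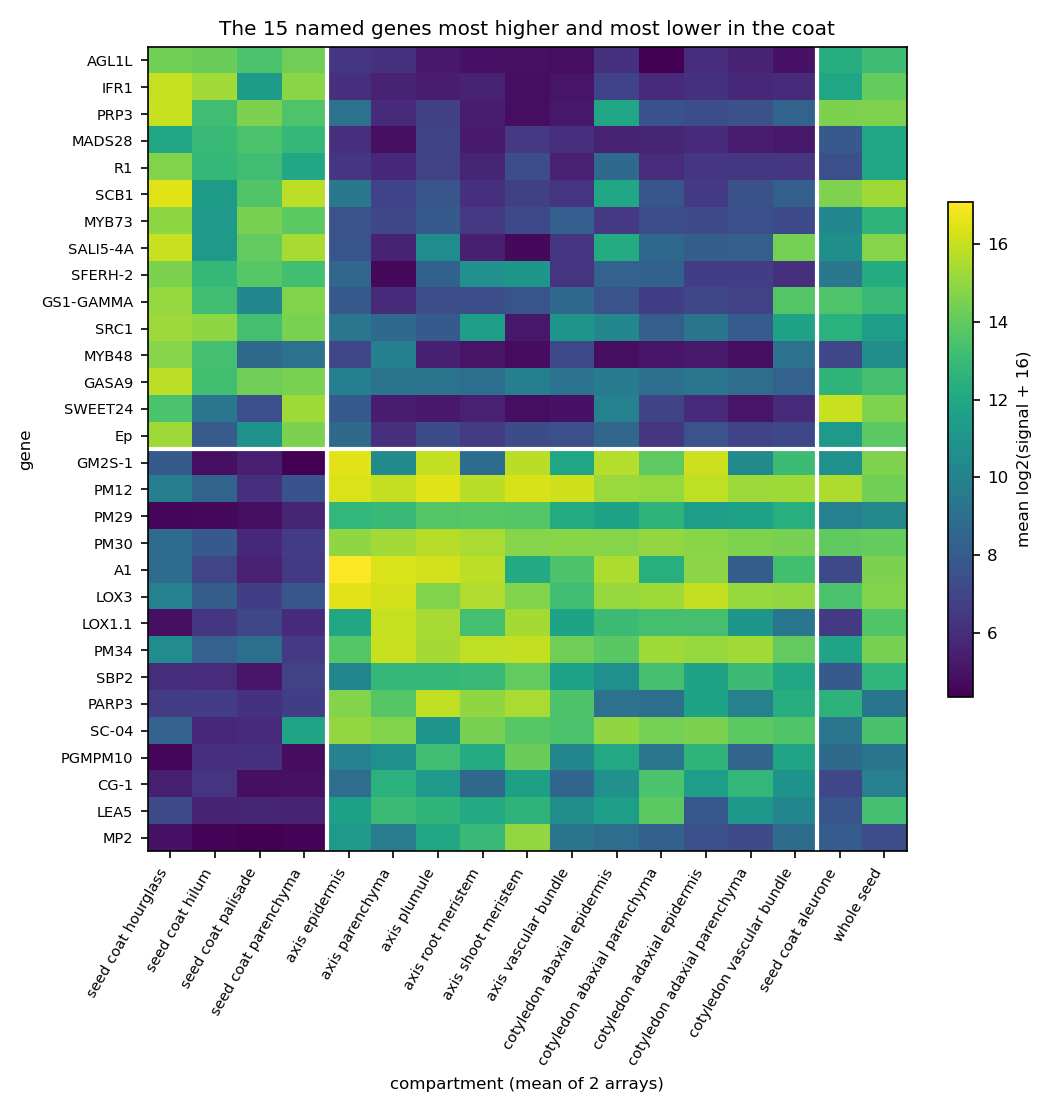
Mean log2(signal + 16) of the 15 named genes with the largest positive difference (upper rows) and the 15 with the largest negative difference (lower rows), in the 4 coat layers at the left, the 11 embryo compartments in the middle, and aleurone and whole seed at the right. The upper genes are bright in the coat and dim in most embryo compartments, with exceptions in cotyledon abaxial epidermis and cotyledon vascular bundle, and PM12, PM30 and LOX3 are bright in the aleurone as well as in the embryo.

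The coat layers were not alike. The 4 layers differed for 10546 of the 27769 probe sets (38.0%; limma F test, adjusted), and for 1306 of the 2171 higher in the coat (60.2%) and 1398 of the 2297 lower (60.9%). Among the 1306, the layer with the highest mean was hourglass for 645 (49.4%), parenchyma for 252 (19.3%), hilum for 212 (16.2%) and palisade for 197 (15.1%). Over all 10546, hourglass was highest for 23.1% and palisade for 29.2%. Among the 1398 lower in the coat, hourglass was the highest layer for 158 (11.3%) and palisade for 604 (43.2%). Hourglass thus stood farthest from the embryo most often in the first set and nearest to it least often in the second. Without the hourglass layer 1574 probe sets were called higher and 1593 lower, of which 1442 and 1468 were shared with the calls from all 4 layers. These shares use the signals that made the calls and carry no test.

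Embryo maxima of genes higher in the coat fell most often on a few arrays. Some of these maxima lay below the background, as for MADS28 and SEP1, which were above it on 0 embryo arrays. Of the 55 named genes called higher in the coat, 12 had their highest embryo signal on axis epidermis replicate 2, 10 on cotyledon vascular bundle replicate 2 and 7 on cotyledon abaxial epidermis replicate 1. Both epidermis arrays had the highest coat marker sums in the embryo (663 and 713). The 4 markers in that sum are themselves among the 55 genes, so the sum is not independent of these maxima. The vascular bundle array had 159, below the median of 184 over embryo arrays. The part of coat material in the 3 arrays was not tested.

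The aleurone sided wholly with neither of the compared tissues. Its coat marker sum was 13897 and 9892 on its 2 arrays, below every coat array (24182 or more) and above every embryo array (at most 713). Its embryo marker sum, 6436 and 5796, was below every embryo array (12582 or more). That sum was above every coat array except hourglass replicate 2 (11866). The part of coat material in these sections was not tested. Of the 2171 probe sets higher in the coat, the aleurone mean was nearer the coat for 1160 (53.4%) and nearer the embryo for 1011 (46.6%). For the 2297 lower in the coat, it was nearer the coat for 1088 (47.4%) and nearer the embryo for 1209 (52.6%). Several embryo genes were bright there. MFT, a regulator of germination used here as the aleurone marker, averaged 12549 in the aleurone, against 48.1 to 453 on the coat arrays and 222 to 22195 on the embryo arrays (coat minus embryo -5.40 ± 0.76, limma adjusted p = 0.000136). PM12 averaged 48117 and PM30 16444 in the aleurone, each above every coat array. SWEET24 averaged 69414 there, above every coat and embryo array. In contrast, IFS1 averaged 68.6, within its coat range, and ANR1 averaged 73.5, below every coat array.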

How the data were processed

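Signals came from the series matrix, in which the authors deposited 1 linear intensity per probe set and array, made with GCOS 1.3 per the submitters' processing notes; its algorithm and settings were not given in the sources used. Every array had the same mean after the outer 2% on each side was set aside, so scaling had been done, and 0 columns lacked a sample. Of 61170 probe sets, 37593 are for soybean and 23350 for Phytophthora sojae and Heterodera glycines. The probe sets of these 2 other organisms gave the background, 117.6 to 263.9 on the arrays compared.

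Soybean probe sets above the background on at least 2 of the 30 arrays were tested (27769). Values were log2(signal + 16), a pseudocount that understates changes of dim genes. Compartment means of 2 arrays entered limma (lmFit, eBayes with intensity trend), coat minus embryo. Layers of the coat were compared by F test in 1 fit of the 32 microdissected arrays (16 groups). The number of arrays limits the precision. R 4.3.3, limma 3.58.1, data.table version 1.17.8, Python 3.11.15, pandas 2.3.3 and matplotlib 3.10.9 were used. The procedure was tested on simulated data with known shifts.

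The probe annotation ties 8677 soybean probe sets to a single gene, 370 to several and 28546 to none; 3083 of the 4468 called probe sets have no single gene and are unnamed here. Each gene is read by its probe set with the highest mean signal. The genes named are the 15 called with the largest difference in each direction, up to 4 called members of each list in each direction, list members not called (values only), and the 4 markers; others are marked in the text as chosen later. Members, lists and tests were chosen with earlier results of these data known. Probe sets of BZIP70, CHI1B1, CP3, GSTU30, IF7MaT, IFS1, IFS2, KTI3, LOX3, LOX9, NAC14, NMH7, PM30, PRP1, PRP3, R1, SBP2, SGT2, SIP1-6, SRC1, C4H, CHS1, SUT1, CEL12 and GY2 may bind near-identical copies. Alternatives were other pseudocounts, filters, scalings, blocks, weights and subsets of compartments and arrays. Of the genes named, HSF-01, MYB48, PIP2-1, NAC14, IF7MaT and LOX9 also had a probe set that did not share the call. No genome positions or sequences were used.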

Additional observations from a re-analysis of the deposited data

Results flagged for a closer look

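In 5 of the 111 named genes examined, 1 coat layer stood far from the other 3 by Dixon's ratio, the gap to the nearest layer over the range of all 4 on the log2 scale. For independent values from a normal distribution, chance flags about 1 in 20 groups, and 5 of 111 is no more than that rate gives. The named genes were not drawn at random, so the rate is only a rough guide and says nothing of any single gene. The gene AGL1L had its lowest mean in palisade (ratio 0.866), at 11536 against 19473 to 21236, and its layers did not pass the limma F test (adjusted p = 0.827). For PRP1 the parenchyma was low (0.975). In GASA6, called higher in the coat, the parenchyma was high, at a mean of 22799.8 against 238 to 263 in the other layers (0.984), and GASA6 was not called without the parenchyma (1.80, limma adjusted p = 0.0743), against the axis alone (3.55, adjusted p = 0.0689) or against the cotyledon alone (3.24, adjusted p = 0.139). CYP90A15, also called higher in the coat, was low in palisade, at 124 against 2002 to 2247 (0.949). It was not called without the hourglass layer (1.96, adjusted p = 0.0945), the hilum (2.03, adjusted p = 0.0767) or the parenchyma (2.01, adjusted p = 0.0756), or against the axis alone (1.57, adjusted p = 0.144). LEA5, lower in the coat, had its highest layer in hourglass, at 138 against 33.2 to 46.5 (0.953).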

How the results depend on the processing

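Of 109 named genes called, 64 kept their call under every alternative that gave a value (60, or 59 for BZIP1, LAR1 and NMH7) and 45 lost it under at least 1. No called gene changed direction, but GY1 and GY2, not called, were above 0 against the axis alone (0.42 and 0.77). Against the cotyledon alone, 1269 probe sets were higher and 1482 lower, with 5 embryo compartments in place of 11; against the axis alone 2001 and 2434. Leaving out 1 array gave 2073 to 2241 higher and 2232 to 2370 lower, and 8948 to 9626 probe sets that differed among layers. Leaving out 1 compartment gave 1574 to 2242 higher and 1593 to 2553 lower, lowest without the hourglass layer. Over 105 pairs of compartments, deviations of arrays with the same replicate number correlated at -0.08 to 0.12 (median 0.02). Such values cannot show whether compartments shared seeds. With the replicate block on arrays, and compartment as a random block, 2508 were higher and 2535 lower (2519 and 2554 with the random block alone), and 10748 differed among layers. Hybridization controls as a covariate gave 2030 and 2414. Pseudocount 64 gave 2036 and 1946, pseudocount 1 gave 2104 and 2428, quantile normalization 2230 and 2228. Differences of genes below the background in 1 tissue rest in part on signals that cannot be told from it.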

Other observations

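Whole seed, prepared by grinding with another RNA reagent, stood outside the comparison. Its coat marker sum was 30347 and 30752 on its 2 arrays, above every embryo array (at most 713). Both sums lay within the range of the coat arrays (24182 to 93497), near its lower end. SEP1, taken alone among the markers, had a whole seed mean of 273, below every coat array (1619 or more). PARP3, lower in the coat (-6.24 ± 1.17, limma adjusted p = 0.00144), had a whole seed mean of 632 and an aleurone mean of 6372, and its difference was -8.20 against the axis and -3.89 against the cotyledon. Among the 54 named genes called lower in the coat, the aleurone mean was above every coat array for 27 and below every embryo array for 22. Among the 55 called higher, it was below every coat array for 24 and above every embryo array for 20.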
